A study of Ramazzottius varieornatus with 27 samples.

Results

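The 6 libraries of the tardigrade Ramazzottius varieornatus described here were 3 made from animals sampled 18 h after 500 Gy of 60Co gamma ray (h18-1 to h18-3) and 3 from non-irradiated controls (Ctrl-1 to Ctrl-3), out of 27 libraries in the series. They were chosen by their labels, as the 18 h time point of a course that sampled animals at 8 times from 4 h to 24 h. Each library held RNA of 30 whole animals, and the 3 samples of a group were technical replicates, so that the spread behind each p-value is technical. The libraries of 18 h had 21 cycles of PCR, and those of 24 h had more. The methods name neither the cycles nor the sampling time of the controls, so time after irradiation, time on the plate and library preparation cannot be told apart in this comparison.

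Gamma rays break both strands of DNA and split water into reactive oxygen species, and animal cells meet them with DNA repair enzymes, arrest of the cell cycle and antioxidant enzymes. Tardigrades that survive drying also survive high doses of radiation, and R. varieornatus is known for proteins that shield DNA and cell contents. The deposited table names its rows by transcript model only (g1.t1 and the like), and 0 of these IDs matched an entry of the gene table of the assembly Rvar_4.0. The rows are therefore described by level, direction and course, and no gene list could be counted.

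The values are TPM (each transcript's share of all RNA after correction for its length) multiplied by a TMM factor for each library. The columns summed to 969108, 957026 and 891312 at 18 h, against 1140371, 1068722 and 1089329 in the controls. The deposited TPM carry no counts, and no counting error is given here. The table holds 14532 transcripts of 13920 genes, and 12820 of them reached a value of 1 in at least 3 of the 27 libraries and were tested. Groups were compared on log2(value + 1) with limma, with all 27 libraries in one fit. Transcripts were called where the p adjusted after Benjamini and Hochberg was under 0.05 and the means of both groups differed by more than 2-fold.

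The libraries differed in how many transcripts they listed above 0. The number was 13078 in h18-1, 10570 in h18-2 and 11424 in h18-3, against 13126, 13325 and 11556 in Ctrl-1, Ctrl-2 and Ctrl-3. The mean was lower by 978 at 18 h, which did not pass a two-sided exact permutation test (p = 0.2, where the smallest p that 3 against 3 can give is 0.1). Of the tested transcripts, 1083 were at 0 in h18-2 while above 0 in both other 18 h libraries, against 29 for h18-1 and 385 for h18-3. Among the controls, 1011 were at 0 in Ctrl-3 alone, 74 in Ctrl-1 alone and 44 in Ctrl-2 alone. Each group thus had a library with many zeros of its own. The 1083 transcripts missing from h18-2 were mostly low. The mean of h18-1 and h18-3 had a median of 2.36 over them, and it was at least 10 for 132. Of the 1083, 881 were above 0 in at least 4 of the 6 libraries of 15 h and 21 h, and 716 in all 3 controls. Across the tested transcripts, Pearson's r of log2(value + 1) was 0.895 to 0.946 among the 18 h libraries and 0.947 to 0.972 among the controls. It was 0.869 to 0.883 between h18-2 and the controls, 0.907 to 0.929 for h18-1 and 0.892 to 0.902 for h18-3 (transcripts are not independent replicates). The weight that limma estimated for a library from its own spread was 0.286 for h18-2, 1.06 for h18-1 and 0.571 for h18-3, against 2.87, 0.917 and 0.596 for the 3 controls.

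**Figure D1:**
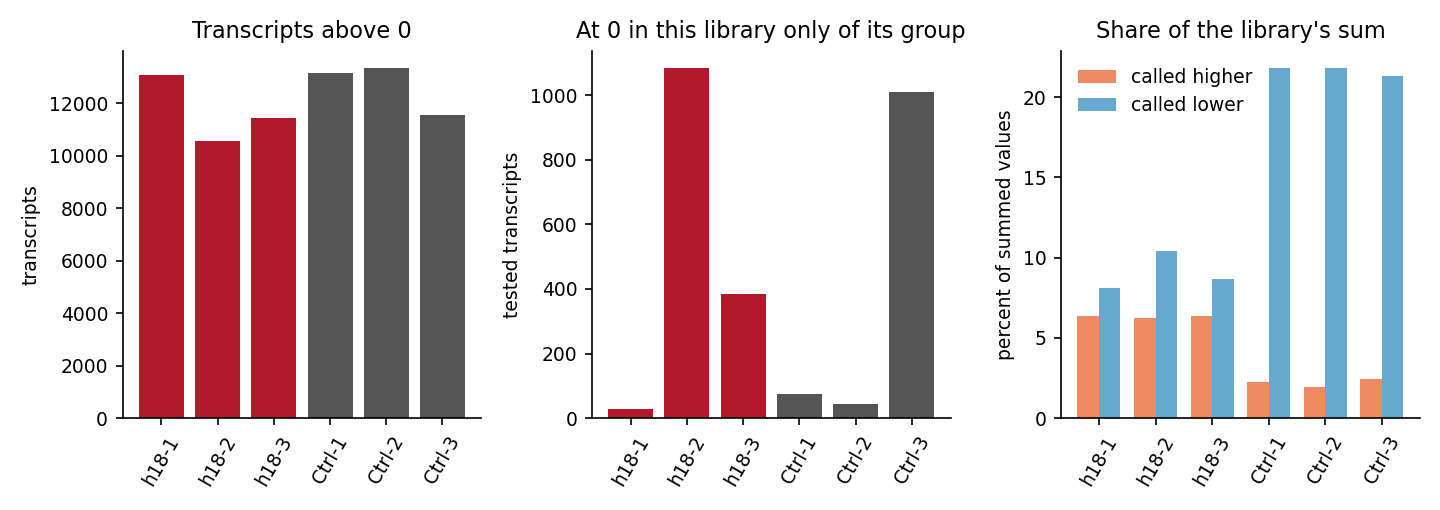
For the 3 libraries of 18 h (red) and the 3 controls (grey), the left panel plots the number of transcripts above 0, and the middle panel the number of tested transcripts at 0 in that library while above 0 in the other 2 of its group. The right panel plots the percent of a library's summed values held by the transcripts called higher (orange) and lower (blue) at 18 h. h18-2 and Ctrl-3 stand out in the middle panel with 1083 and 1011 transcripts, and the blue bars are at 8.09% to 10.4% at 18 h and 21.3% to 21.8% in the controls. The called sets were chosen on these same libraries, so the direction of this difference follows from the choice.

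At 18 h, 679 transcripts of 674 genes were higher than in the controls and 1148 of 1147 genes were lower, by limma. These are 5.30% and 8.95% of the transcripts tested. The higher ones had a median log2 fold change of 1.20, the lower ones of -1.57, and all tested transcripts of -0.11. Relative to that shift of all transcripts, the medians were 1.31 and -1.46. Among calls with a mean above 0 in both groups, 358 of the lower transcripts fell more than 4-fold, 140 more than 8-fold and 54 more than 16-fold. Of the higher ones, 47 rose more than 4-fold, 18 more than 8-fold and 11 more than 16-fold. These counts include calls that were not made without h18-2, such as the rise of g1007.t1 and the fall of g1018.t2. They also include calls whose groups overlapped, as in g1007.t1 with 0.376, 24.1 and 0 in Ctrl-1, Ctrl-2 and Ctrl-3. The folds counted here are ratios of the group means without the added 1, so values near 0 can give large folds. The fall of g10223.t1 counts as more than 16-fold, with 0.184, 0 and 0 in h18-1, h18-2 and h18-3 and a control mean of 1.72. Its log2 fold change on log2(value + 1) was -1.36. With the TMM factor undone and the same limit to means above 0, 259 fell and 86 rose more than 4-fold. The higher transcripts were of middling level, with a median of the group mean of 60.6 at 18 h and 25.9 in the controls. The lower ones had a median of 18.0 at 18 h and 55.6 in the controls. Over all tested transcripts it was 27.5 and 27.0.

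The balance of rises and falls depended on the scaling and on the fold rule. When the TMM factor was undone, so that each library had the same sum, 1252 transcripts were called higher and 756 lower. The share of higher ones among the calls was then 62.4%, against 37.2% with the deposited scaling, and the median log2 fold change of all tested transcripts was 0.07. With quantile normalization 921 were higher and 863 lower (51.6% higher). Under the deposited scaling without a fold threshold, 2010 were higher and 1806 lower (52.7% higher). Of the 679 higher and 1148 lower transcripts, 505 and 540 were called under the deposited scaling, both other scalings and without h18-2 (74.4% and 47.0%).

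**Figure D2:**
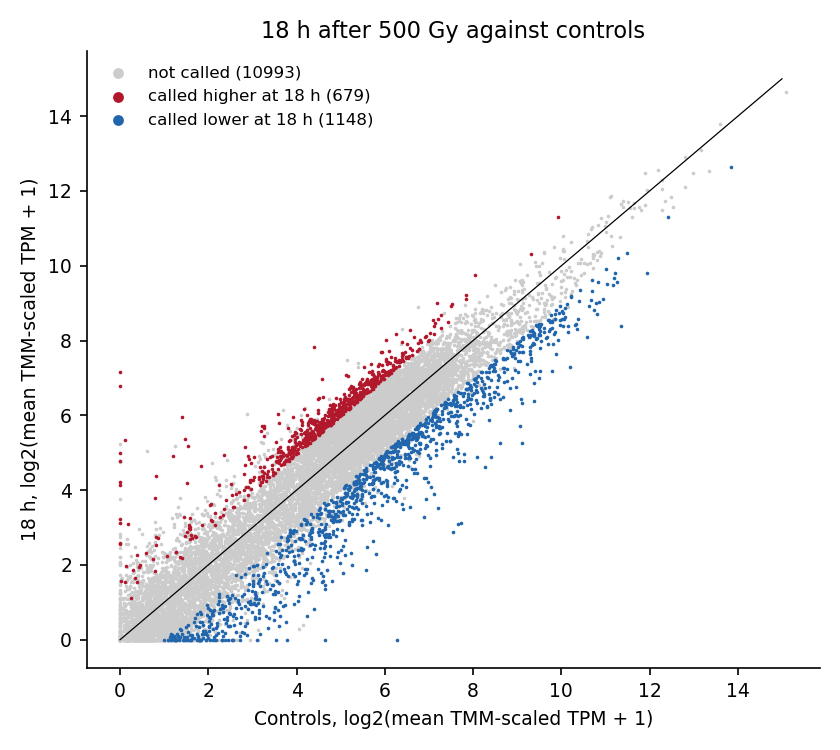
Each point is 1 of 12820 tested transcripts, at log2(mean + 1) of the 3 controls (x axis) and of the 3 libraries of 18 h (y axis), in TMM-scaled TPM. Red points are the 679 called higher and blue points the 1148 called lower. The line marks equal means. Blue points reach to the high end of the control axis, while red points lie mostly at middle levels.

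In most calls the groups did not overlap. The 3 values of 18 h all lay above the 3 controls for 655 of the 679 higher transcripts (96.5%) and all below them for 1088 of the 1148 lower ones (94.8%). Over all tested transcripts this held for 18.9% (all above) and 21.1% (all below). As calls were made on the same values, these shares only describe them.

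Each library of 18 h was also set against calls made without it. When h18-2 was left out of the fit, 664 transcripts were called higher and 1035 lower (5.18% and 8.07% of those tested). In h18-2, 626 of those 664 (94.3%) lay above all 3 controls and 885 of those 1035 (85.5%) below all 3. Over all tested transcripts, 33.9% and 38.8% did so in h18-2. With h18-1 held out the shares were 90.9% of 667 higher and 92.3% of 1151 lower transcripts, beside 33.7% and 35.7% of all. With h18-3 held out they were 94.3% of 679 and 88.9% of 1079, beside 34.5% and 36.0%. The size also carried over in most cases, since 63.4% of the higher and 60.0% of the lower transcripts called without h18-2 differed more than 2-fold from the control mean in h18-2 itself (12.3% and 30.7% of all tested). The control libraries are shared between the call and its check.

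Leaving out h18-2 changed which transcripts were called more than how many. Of the higher transcripts 537 of 679 were called in both fits (79.1%) and of the lower ones 820 of 1148 (71.4%). In all, 470 calls were lost and 342 were gained, with 0 in opposite directions. The 328 lower calls that were lost were low transcripts, with a median control mean of 16.8, against 87.0 for the 820 that were kept. Among the lost ones 158 (48.2%) were at 0 in h18-2, against 112 of the kept ones (13.7%) and 18.3% of all tested. Their median log2 fold change was -1.48 with h18-2 and -1.15 without it, and their median adjusted p was 0.0235 and 0.0882 by limma. The 142 lost higher calls had a median log2 fold change of 1.09 with h18-2 and 0.96 without. Both lost sets were chosen for being called only with h18-2, which favours a smaller change and a larger adjusted p without it. The 215 lower calls gained without h18-2 went the other way, with a median log2 fold change of -0.94 with h18-2 and -1.26 without. Of the 286 tested transcripts whose log2 fold change moved by more than 1, 173 were at 0 in h18-2.

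**Figure D3:**
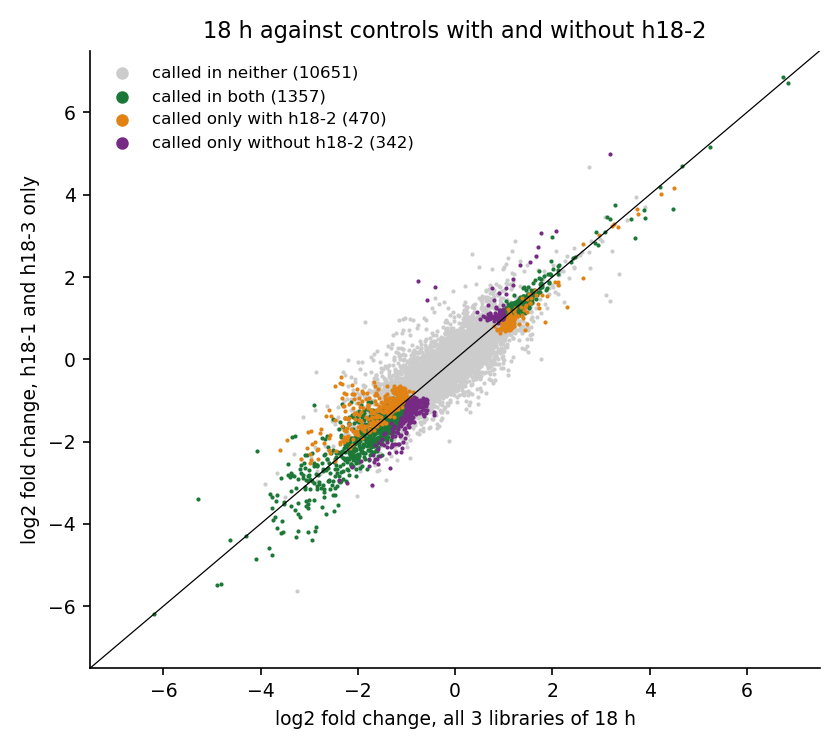
Each point is a tested transcript, at its log2 fold change of 18 h against controls from all 3 libraries (x axis) and from h18-1 and h18-3 alone (y axis). Green points (1357) were called in both fits, orange points (470) only with h18-2 and purple points (342) only without it. Orange points on the left lie mostly above the line of equality, where the falls are smaller without h18-2. Their choice as calls made only with h18-2 favours this position.

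Of the 100 transcripts with the highest control mean, 31 fell and 0 rose at 18 h, beside 8.95% and 5.30% of all tested. Picking by the control mean favours falls. Of the 100 with the highest mean at 18 h, 8 fell and 3 rose. The falls had a log2 fold change between -2.95 and -1.04 (median -1.74), and 5 were more than 4-fold and 0 more than 8-fold. In 30 of the 31 the groups did not overlap, and 27 were also called without h18-2. Together these 31, called lower on the same values, held 2.30%, 3.96% and 2.39% of the summed values in h18-1, h18-2 and h18-3, against 7.15%, 6.70% and 6.61% in the 3 controls. The median log2 fold change of all 100 was -0.61 with the deposited scaling, -0.38 with the TMM factor undone (21 lower, 0 higher) and -0.16 after quantile normalization (18 lower, 0 higher). Of these 100, 71 were among the 100 most abundant at 18 h. Libraries of the same group shared 81 to 86 of their top 100 at 18 h and 85 to 87 in the controls.

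Over all calls, the 1148 lower transcripts held 8.09%, 10.4% and 8.67% of the summed values in h18-1, h18-2 and h18-3, against 21.8%, 21.8% and 21.3% in Ctrl-1, Ctrl-2 and Ctrl-3. The 679 higher ones held 6.37%, 6.21% and 6.34% at 18 h, against 2.23%, 1.94% and 2.46% in the controls. The 80 most abundant of the lower transcripts made up 50.2% of the control sum of that set. These shares do not depend on the TMM factor, although the choice of the transcripts does. Both sets were called on these same libraries, so the direction of these differences follows from the choice. Fewer cells of a type and less RNA per cell cannot be told apart in whole animals.

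The share of calls differed with level, taken as the mean of both groups. Between 10 and 100, 528 of 6312 tested transcripts were higher (8.37%) and 523 lower (8.29%). Between 100 and 1000, 91 of 2022 were higher (4.50%) and 312 lower (15.4%). Over 1000, 1 of 102 was higher and 23 were lower (22.5%). Between 1 and 10, 57 of 2995 were higher (1.90%) and 258 lower (8.61%), and in this class 33.5% of the transcripts were at 0 in h18-2. The median SD of log2(value + 1) in this class was 0.80 at 18 h and 0.48 in the controls, and 0.51 for h18-1 and h18-3 alone. Between 10 and 100 it was 0.32, 0.23 and 0.22. The last value in each case comes from fewer libraries than the others, and a median SD tends to be smaller with fewer libraries. Without h18-2, the lower calls numbered 161 between 1 and 10, 505 between 10 and 100 and 332 between 100 and 1000. These shares moved with scaling. With the TMM factor undone, 987 transcripts between 10 and 100 were higher and 324 lower, and between 100 and 1000 the numbers were 174 and 198. After quantile normalization, 185 between 1 and 10 were higher and 127 lower, while over 1000 4 were higher and 13 lower.

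A small set of transcripts was listed at 0 throughout one group. Above 0 in all 3 libraries of 18 h and at 0 in all 3 controls were 11 transcripts, of which 9 were called higher. Above 0 in all 3 controls and at 0 in all 3 libraries of 18 h were 53, of which 31 were called lower. The 11 had a median of 16.7 at 18 h and the 53 a median of 1.98 in the controls. No fold can be given for these. As h18-2 alone had 1083 zeros that its partners did not have, a value of 0 is reported here only as listed.

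The transcripts named next were chosen by a rule, as the largest rises and falls among the calls that were also made without h18-2, did not overlap between groups, had a group mean of at least 10 and belonged to genes with 1 transcript model. By this rule 485 higher and 699 lower transcripts were eligible. What their products do is not known from the sources used here.

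Among the rises, g4149.t1 was at 12.2, 69.1 and 11.0 in h18-1, h18-2 and h18-3, and was listed at 0 in all 3 controls. Its value in h18-2 was the highest of the 27 libraries, and the other 2 lay close together. It was called higher with an adjusted p of 0.00483 by limma, and of 0.0336 without h18-2. It was no longer called when Ctrl-3 was left out as well (adjusted p = 0.0654). It was at 0 in all 3 libraries of 4 h. At 6 h it was at 19.0 in h06-3, which had 21 PCR cycles, against 6.69 and 0 in h06-1 and h06-2 with 15. It was at 0 to 7.82 at 9 h, at 0 to 17.7 at 12 h, at 8.87 to 22.8 at 15 h, at 21.5 to 36.1 at 21 h and at 0 to 11.7 at 24 h.

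The transcript g10048.t1 was at 31.9, 36.9 and 21.1 in h18-1, h18-2 and h18-3, against 7.90, 4.08 and 0.327 in Ctrl-1, Ctrl-2 and Ctrl-3. The lowest library of 18 h was above the highest control. By limma the log2 fold change was 2.95, with a standard error of 0.47 and an adjusted p of 6.45e-05. Without Ctrl-3 the log2 fold change was 2.17 and without Ctrl-1 3.54, both called. With 2 groups in the fit and h18-2 left out, the adjusted p was 0.0803. Over the 8 irradiated groups, from 4 h to 24 h in order, the mean was 7.17, 12.9, 19.8, 20.3, 23.9, 29.9, 27.1 and 26.2, with SDs between 0.616 and 8.10 (n = 3 each). At 6 h it was at 20.3 in h06-3 (21 PCR cycles), against 8.81 and 9.70 in h06-1 and h06-2 (15 cycles). The values of 15 h, 18 h and 21 h overlapped, and limma called no difference between 18 h and either (adjusted p = 0.914 and 0.984).

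Among the falls, g5285.t1 was listed at 0 in all 3 libraries of 18 h, against 74.6, 46.9 and 108 in Ctrl-1, Ctrl-2 and Ctrl-3. It was called lower with an adjusted p of 0.000982 by limma, and of 0.00367 without h18-2. It was at 0 in every library of 12 h, 15 h and 24 h as well, and at 24.6 to 38.2 at 4 h. At 6 h it was at 0 in h06-3 (21 PCR cycles), against 33.8 and 41.6 in h06-1 and h06-2 (15 cycles), and at 21 h it was at 0 to 2.84. At 9 h it was at 0 in all but 1 library, which had 120.

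The transcript g1949.t1 was at 31.7, 0 and 80.2 in h18-1, h18-2 and h18-3, against 652, 396 and 615 in Ctrl-1, Ctrl-2 and Ctrl-3. Every library of 18 h was below every control, and h18-2 was the lowest. By limma the log2 fold change was -5.29, with a standard error of 1.24 and an adjusted p of 0.00246, and without h18-2 it was -3.40 (adjusted p = 0.0221). With only the libraries of 18 h and control in the fit it was not called (adjusted p = 0.0616). Nor was it called without both h18-2 and Ctrl-3, where the log2 fold change was -3.31 (limma adjusted p = 0.0526). Over the 8 irradiated groups, from 4 h to 24 h in order, the mean was 949, 636, 385, 189, 88.5, 37.3, 74.1 and 39.9, with SDs between 16.6 and 299 (n = 3 each). At 6 h it was at 392 in h06-3, against 970 and 548 in h06-1 and h06-2.

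The gene g12777 was taken up for its course over all times, with its values known. Its transcript g12777.t1 was at 271, 149 and 129 in h18-1, h18-2 and h18-3, against 250, 291 and 257 in Ctrl-1, Ctrl-2 and Ctrl-3, and the groups overlapped. It was not called at 18 h. Its log2 fold change was -0.61 with a standard error of 0.21, and the limma adjusted p was 0.035 with all libraries and 0.135 without h18-2, while the means differed by less than 2-fold. The mean was 183 ± 76.8 at 18 h, against 700 ± 26.1 at 4 h (SD, n = 3). This log2 difference was -2.004 with a standard error of 0.21 (limma adjusted p = 2.3e-06).

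**Figure D4:**
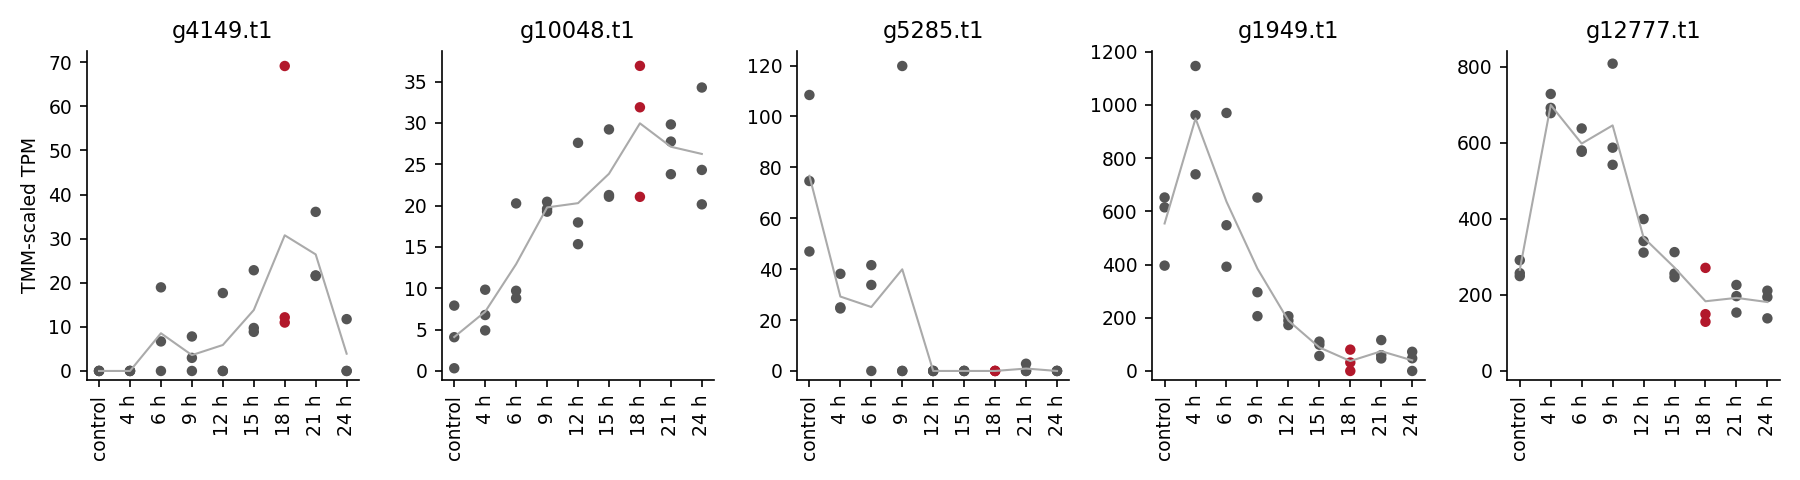
The value of 5 transcripts in TMM-scaled TPM (y axis, linear, its own range in each panel) is plotted for the 27 libraries by time after 500 Gy (x axis), with 18 h in red, the other libraries in dark grey and the group means joined by a light line. g4149.t1 and g10048.t1 are higher at 18 h than in the controls, g5285.t1 and g1949.t1 are lower, and g12777.t1 overlaps the controls at 18 h after its high values at 4 h to 9 h.

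The sets were then followed in libraries whose values are in neither group mean. The mean of 15 h and 21 h was set against the mean of 4 h and 6 h, groups that share no library with 18 h or the controls. Of the 679 transcripts higher at 18 h, 638 (94.0%) were higher at 15 h and 21 h than at 4 h and 6 h, against 44.0% of all tested. Of the 1148 lower ones, 1014 (88.3%) were lower at 15 h and 21 h, against 55.9% of all tested. The median log2 difference was 0.53 for the higher set and -0.59 for the lower set, and -0.07 over all tested. With the 5 early libraries of 15 PCR cycles alone it was 0.63, -0.68 and -0.08. The libraries of 15 h and 21 h had 21 cycles, as those of 18 h did. The groups of 4 h and 6 h had 15, except for h06-3 with 21. Relative to the mean of the controls, the median log2 change of the higher set was 0.93 in h06-3, against 0.47 and 0.60 in h06-1 and h06-2, and that of the lower set was -0.97, against -0.39 and -0.57. Within 6 h, h06-3 thus stood apart from the other 2 libraries in both sets. With 1 library against 2, cycle number cannot be told apart from other differences between these libraries. The part of cycle number in the difference between 18 h and the controls was not tested. The lower calls that were lost without h18-2 showed this direction in 280 of 328 cases (85.4%), and the kept ones in 734 of 820 (89.5%).

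The levels of both sets by library place 18 h within the course. The median log2(value + 1) of the higher set was 5.96, 5.93 and 5.97 in h18-1, h18-2 and h18-3, against 4.84, 4.46 and 4.87 in Ctrl-1, Ctrl-2 and Ctrl-3. That of the lower set was 4.21, 4.24 and 4.25 at 18 h, against 5.78, 5.79 and 5.75 in the controls. The 3 libraries of 18 h lay close together in both medians, which the choice of the sets on these same libraries favours. Averaged over the libraries of a group, from 4 h to 24 h in order, the higher set was at 5.02, 5.41, 5.82, 5.80, 5.70, 5.95, 5.85 and 5.86. The lower set was at 5.35, 5.04, 4.79, 4.48, 4.70, 4.23, 4.61 and 4.69. The means of 6 h pool libraries that stand apart, as h06-3 (21 cycles) was at 5.71 and 4.72 in the higher and lower set, against 5.20 and 5.28 in h06-1 and 5.32 and 5.11 in h06-2 (15 cycles). As the sets were chosen by their difference at 18 h, the extreme position of 18 h follows in part from the choice.

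**Figure D5:**
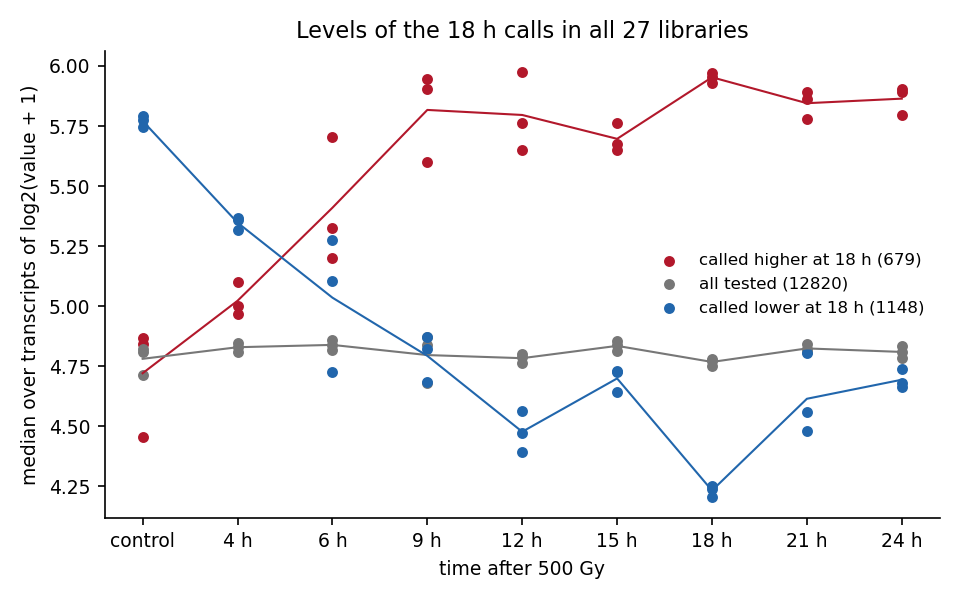
Each point is a library, at the median of log2(value + 1) over the transcripts called higher at 18 h (red, 679), lower at 18 h (blue, 1148) or over all tested (grey, 12820), by group from the controls to 24 h after 500 Gy. Lines join the means of the 3 libraries. The red set is at 5.93 to 5.97 and the blue set at 4.21 to 4.25 in the libraries of 18 h, and the grey points stay between 4.68 and 4.87.

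The libraries of 18 h were compared with 3 other groups that had 21 PCR cycles as well. Against 12 h, 15 h and 21 h, limma called 0 transcripts each, with 854, 960 and 1043 at an unadjusted p under 0.05 and a smallest adjusted p of 0.0641, 0.278 and 0.156. Without h18-2 the counts were 0 as well. Without h18-1, which leaves h18-2 and h18-3, 33 transcripts were called against 12 h, 39 against 15 h and 26 against 21 h. Against 4 h, with 15 PCR cycles, 306 transcripts were higher at 18 h and 753 lower, which is 8.26% of those tested. Transcripts called at 18 h lay slightly beyond their neighbours, with a median log2 difference of 0.25 from 15 h and 0.12 from 21 h for the higher set and of -0.48 and -0.38 for the lower set (-0.04 and -0.03 over all tested), which the choice of the sets at 18 h favours. Each time was compared with the same 3 controls. For 18 h the calls numbered 1827, beside 66 for 4 h, 369 for 6 h, 1621 for 9 h, 1320 for 12 h, 894 for 15 h, 1259 for 21 h and 1531 for 24 h. Counts of calls at different times were not tested against each other, and the libraries of 24 h had more PCR cycles than those of 18 h.

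Genes with more than 1 transcript model had about the same share of the higher calls as of all tested transcripts, and a smaller share of the lower calls. Of the tested transcripts 947 (7.39%) belonged to genes with more than 1 model, as did 52 of the higher (7.66%) and 37 of the lower transcripts (3.22%). RSEM divides shared reads among the models of a gene. In 2 genes one model was called higher and another lower, and the sum over the models was called in 0 of these. With models summed per gene, 680 genes were higher and 1160 lower.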

How the data were processed

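The deposited signal values are TPM estimates per transcript, which the authors obtained from 75 bp single-end reads with bowtie2 and RSEM on the coding sequences (v101) and multiplied by a TMM factor per library, with replicates kept apart. The authors tested counts with DESeq2. The deposited table used here holds no counts, and the counts supplied with the paper were not used. The log2(value + 1) was therefore tested with limma 3.58.1 under R 4.3.3 (means of 9 groups, trend, Benjamini-Hochberg adjustment over 12820 transcripts). The fit was tested on simulated data. The 6 libraries were taken from the labels, and the comparison, the transcript sets and g12777 were chosen with earlier results of these data known. Named transcripts follow the rule given with them, limited to 2 in each direction because the IDs carry no gene names. The fit was repeated without h18-2, without each other library, with 2 groups only, with library weights, a replicate block, a pseudocount of 0.1, other filters (none, or a minimum of 5), other scalings, other fold rules and summed models. No set test was run, and 0 columns lacked a sample. Plots used matplotlib 3.10.9 under Python 3.11.15.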

Additional observations from a re-analysis of the deposited data

Results flagged for a closer look

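The 5 named transcripts differed between 18 h and 4 h by limma, so that their change against the shared controls was not the same at both times. The choice of these transcripts by their change at 18 h, or by their course, favours such a difference, and 8.26% of all tested transcripts were called between 18 h and 4 h. The log2 difference of 18 h minus 4 h was 1.93 for g10048.t1 (adjusted p = 0.00485), -6.08 for g1949.t1 (adjusted p = 0.00131) and -2.004 for g12777.t1 (adjusted p = 2.3e-06). For g12777.t1 the log2 fold change against the controls was -0.61 at 18 h and 1.39 at 4 h. The transcript g4149.t1 was above 0 in all 3 libraries of 18 h and listed at 0 in all 3 of 4 h (adjusted p = 0.00739), and g5285.t1 was listed at 0 in all 3 of 18 h and above 0 in all 3 of 4 h (adjusted p = 0.00983). The libraries of 18 h had 21 PCR cycles and those of 4 h 15, and the part of cycle number in these differences was not tested.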

How the results depend on the processing

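For 18 h against the controls, the number of higher transcripts ran from 472 to 921 and that of lower ones from 823 to 1178 under all alternatives except those named next. The TMM factor undone gave 1252 higher and 756 lower, and no fold threshold gave 2010 and 1806. No fold threshold gave 2689 calls against 4 h. With 1 library left out in turn, the calls numbered 0 to 33 against 12 h, 0 to 39 against 15 h and 0 to 26 against 21 h. With only the 2 groups in the fit, 1 was called against 12 h and 1 against 21 h. Array weights, quantile normalization and the replicate block gave 1 each against 12 h. Settings added after the data were seen gave 755 higher and 907 lower without both h18-2 and Ctrl-3, 652 and 874 among transcripts above 0 in all 6 libraries, and 510 and 940 with 2 groups and no h18-2. The replicate numbers did not pair the samples, with correlations of 0.09, -0.127 and 0.006 between the deviations of same-numbered libraries, and with the replicate block 679 were higher and 1128 lower. The adjusted p of g12777.t1 ran from 0.00105 to 0.320 over the alternatives, and that of g10048.t1 was 0.0803 with 2 groups and no h18-2. The zeros in h18-2 and Ctrl-3 were not set against read numbers here.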
